A study of Mus musculus with 9 samples.

Results

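The levels of 5 genes were followed in mouse liver: the long noncoding RNAs Neat1 and Malat1 and the paraspeckle proteins Sfpq, Nono and Pspc1. They were taken by name from a deposited table of 54532 genes, and all 5 were among the 11852 genes tested, which averaged 0.5 FPKM or more (read counts scaled to gene length and to a depth value for each library). The set was chosen by name with the FPKM levels and fold changes of these same libraries in view, in all 3 comparisons, so their levels and fold changes are given as descriptions with no p-value. Where the text states which of the 5 passed a threshold, nothing is read from it. The 9 libraries were poly-T-selected liver RNA in 3 groups of 3. The first group was Cth knockout mice given betaine at 1% in their drinking water, the next was Cth knockout mice given drinking water, and the last was wild-type mice given drinking water. Cystathionine gamma-lyase, the product of Cth, splits cystathionine to yield cysteine, and betaine is a methyl donor that turns homocysteine back into methionine. The knockout allele, the strain, the age and the sex of the mice were not given in the labels, and no wild-type mice given betaine were among the samples used here. The study set the groups side by side to ask about the part of Cth in chronic liver disease.

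Paraspeckles are bodies in the nucleus that assemble on the long isoform of Neat1, and they hold back certain RNAs and proteins from the rest of the cell. The short isoform of Neat1 starts at the same place, ends early at a polyadenylation site and cannot build a paraspeckle alone. Malat1, made from the neighbouring gene, is an abundant RNA of nuclear speckles, the bodies where splicing factors gather. Sfpq, Nono and Pspc1 belong to one family of RNA-binding proteins, bind Neat1 in pairs with each other and mark the paraspeckle; in mouse and human cells Sfpq and Nono are needed to keep the long isoform stable.

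Neat1 (ENSMUSG00000092274) lies on chromosome 19 of the mouse assembly mm10 (GRCm38), at chr19:5824708-5845478 on the minus strand, and Malat1 (ENSMUSG00000092341) at chr19:5795690-5802672 on the same strand, both annotated as lincRNA. The sequences below are shown because the ends of these RNAs bear on what a poly-T library can catch. The long isoform of Neat1 and Malat1 are not polyadenylated at their mature 3′ ends: RNase P cuts both RNAs, and U-rich stretches upstream fold onto an A-rich tract at the new end to form a triple helix. The sequences are from the GENCODE M21 transcripts, 5′ to 3′ in the sense of the RNA with T for U. Capitals mark the motifs TTTCTTTT, TTTTGCTTTT and AAAAGCAAAA in the first pair.
Neat1 3′ end, bases 20662 to 20771 of 20771, chr19:5824708-5824817, minus strand: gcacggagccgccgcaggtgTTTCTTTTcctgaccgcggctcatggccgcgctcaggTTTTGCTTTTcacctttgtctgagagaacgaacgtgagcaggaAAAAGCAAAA
Malat1 bases 6582 to 6691 of 6983, chr19:5795982-5796091, minus strand: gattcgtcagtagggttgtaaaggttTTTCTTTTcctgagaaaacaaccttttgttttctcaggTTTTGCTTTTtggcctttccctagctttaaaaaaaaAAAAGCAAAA
Each end held the U-rich motifs ahead of the A-rich tract. On the sense strand of all annotated transcripts, TTTTGCTTTT followed within 100 bases by AAAAGCAAAA was found in 4 of 141767 (0.00282%), those of Malat1 and Neat1 shown and 2 of Retreg3. The annotated Neat1 transcript stops at the tract, whereas that of Malat1 runs on for 292 bases.

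Just past the tract, each locus holds a small tRNA-like RNA, which RNase P frees from the long one. The 2 stretches are shown with the capitals marking GGTTC, the sequence of the T loop arm of tRNAs.
Malat1 bases 6692 to 6752, chr19:5795921-5795981, minus strand: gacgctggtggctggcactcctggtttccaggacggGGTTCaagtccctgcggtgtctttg
Gm27702, next to the Neat1 end, chr19:5824652-5824707, minus strand: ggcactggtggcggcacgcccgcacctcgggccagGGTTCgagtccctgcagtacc
Gm27702 was listed at 0 FPKM in all 9 libraries, as were 5 other genes annotated within or beside Neat1 and Malat1.

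The end of the short Neat1 isoform differs from these, since it is polyadenylated. Capitals mark TGTA, bound by the Nudt21 subunit of the cleavage factor that favours the short isoform, and AATAAA, a polyadenylation signal.
Neat1 short isoform 3′ end, bases 3053 to 3172 of the long transcript, chr19:5842307-5842426, minus strand: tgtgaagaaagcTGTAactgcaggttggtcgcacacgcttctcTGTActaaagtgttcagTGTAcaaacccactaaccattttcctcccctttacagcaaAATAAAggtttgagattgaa
TGTA occurred 3 times in this window, and 3.72% of annotated transcripts held it at least 3 times in their last 120 bases. AATAAA began 20 bases from the end and was present in the last 120 bases of 29.8% of transcripts. The long form continues for 17599 bases beyond this point. The deposited values are per gene over its whole exon length of 20771 bases, so the short and the long isoform cannot be told apart in them. How much of the long isoform or of Malat1 the poly-T beads caught was not measured.

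The libraries held 15184988 to 17473964 reads on genes, as recovered from the FPKM steps. The depth value by which the FPKM were scaled was not this total. In knockout replicates 1, 2 and 3 it was 13513382, 14189574 and 14892392, below their totals of 15184988, 15765166 and 15545389. It was also below the total in betaine-treated replicate 1 and wild-type replicates 1 and 2. In betaine-treated replicates 2 and 3 and wild-type replicate 3 it was above (18528025 against 16344016 in betaine-treated replicate 2). Cth was at 0.319, 0.309 and 0.781 FPKM in the betaine-treated knockouts and at 0.583, 0.278 and 0.770 FPKM in the knockouts, against 285.4, 256.6 and 219 FPKM in wild type, so the levels went with the labels. Wild-type replicate 3 was unlike the remaining libraries: Xist was at 26.6 FPKM there and at most 0.0124 FPKM elsewhere, and the Y-linked Ddx3y, Eif2s3y, Kdm5d and Uty were at 0 there alone. By these transcripts that library reads as female and the remaining ones as male. Sex was thus not matched between wild type and the knockout groups. Many results against wild type are therefore also given without it. Hepatocyte markers summed to 40096 to 61497 FPKM in betaine-treated knockouts, 55909 to 69442 FPKM in knockouts and 55881 to 71671 FPKM in wild type, and no marker of any cell type list was at 0 throughout a group. Of these 8 markers, 3 passed higher and 2 lower in knockout against wild type (limma, adjusted p under 0.05), beside 12.8% and 12.7% of all genes. Without wild-type replicate 3 these were 0 and 2. For betaine-treated knockout against wild type they were 0 and 1, with or without that library, beside 5.87% and 5.78%. Nothing in the labels says that the replicates are separate animals, so the error given is the spread between these samples. In whole liver, fewer cells of a type and less RNA per cell cannot be told apart.

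Neat1 was lowest in wild type and highest in the betaine-treated knockouts. Its level was 11.1, 7.78 and 10.5 FPKM in betaine-treated knockouts and 4.74, 7.53 and 7.21 FPKM in knockouts, against 1.74, 1.90 and 1.67 FPKM in wild type. The 3 groups did not overlap, although the lowest betaine-treated library (7.78) and the highest knockout library (7.53) were close. The means were 9.81 ± 1.78 FPKM in betaine-treated knockouts, 6.49 ± 1.53 FPKM in knockouts and 1.77 ± 0.118 FPKM in wild type (SD, n = 3 each). These levels rested on 2995 to 3899 reads per betaine-treated library, 1331 to 2231 per knockout library and 568 to 627 per wild-type library.

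Every difference and fold change here is on the log2(FPKM + 0.5) scale, as the first-named group minus the other. Neat1 differed by 1.60 ± 0.19 (SE) between knockout and wild type, by 0.57 ± 0.19 between betaine-treated knockout and knockout, and by 2.17 ± 0.19 between betaine-treated knockout and wild type. Without wild-type replicate 3 the differences from wild type were 1.57 and 2.14. Leaving out 1 library at a time gave 1.49 to 1.80 for knockout against wild type, 0.37 to 0.72 for the betaine comparison and 2.07 to 2.32 for betaine-treated knockout against wild type. Ranked by level among the genes tested, Neat1 had a median rank of 3004 in betaine-treated knockouts, 3764 in knockouts and 8211 in wild type.

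Malat1 had another order, with the knockouts on top. Its level was 43.3, 25.6 and 27.9 FPKM in betaine-treated knockouts and 37.1, 74.5 and 88.5 FPKM in knockouts, against 21.3, 18.1 and 16.7 FPKM in wild type. Both knockout groups lay above every wild-type library, but they overlapped each other, with knockout replicate 1 (37.1) below betaine-treated replicate 1 (43.3). The means were 32.2 ± 9.64 FPKM in betaine-treated knockouts, 66.7 ± 26.6 FPKM in knockouts and 18.7 ± 2.32 FPKM in wild type (SD, n = 3 each).

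Malat1 differed by 1.72 ± 0.32 between knockout and wild type (1.65 without wild-type replicate 3) and by 0.74 ± 0.32 between betaine-treated knockout and wild type (0.66 without it). Between betaine-treated knockout and knockout the difference was −0.98 ± 0.32, and it ran from −1.36 to −0.74 as single libraries were left out. The knockout libraries, the highest at 88.5 and the lowest at 37.1 FPKM, spread more widely than those of either other group.

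**Figure D1:**
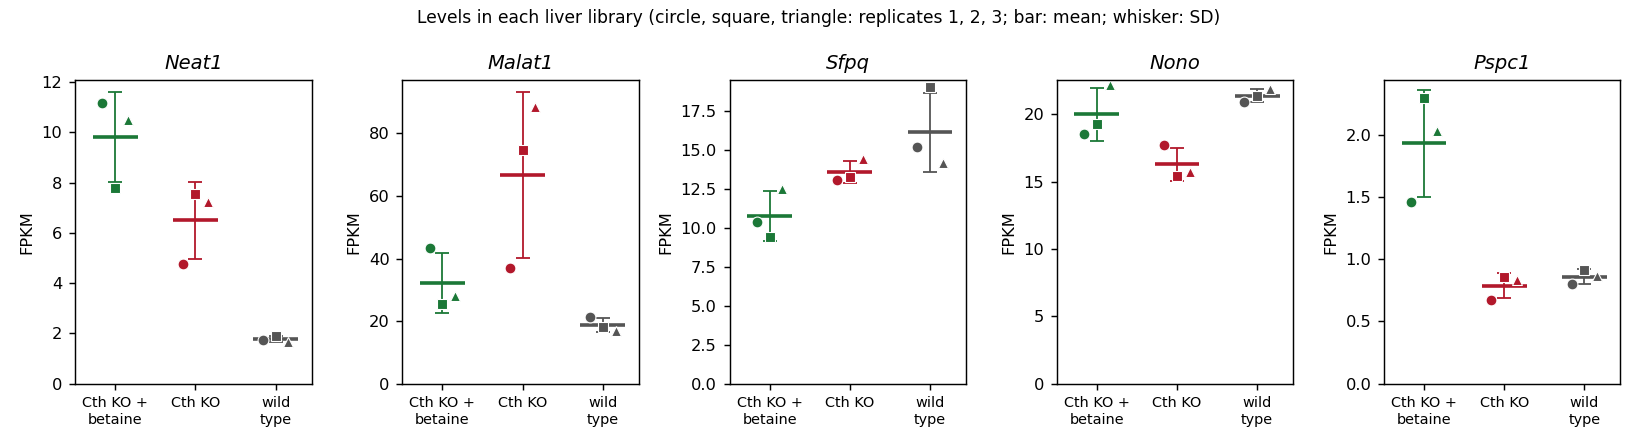
Levels of Neat1, Malat1, Sfpq, Nono and Pspc1 in FPKM (y axis, from 0) in the 9 liver libraries, grouped as betaine-treated Cth knockout, Cth knockout and wild type (x axis); symbols are replicates, bars the means and whiskers the SD. Neat1 averages 9.81 FPKM in betaine-treated knockouts, 6.49 FPKM in knockouts and 1.77 FPKM in wild type, while Malat1 is highest in the knockouts and Pspc1 in the betaine-treated knockouts.

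Among the 3 proteins, Nono was the most abundant per length and Pspc1 the least. Sfpq (ENSMUSG00000028820, chr4:127021324-127037013, plus strand), which also acts in splicing and transcription, was at 10.4, 9.42 and 12.5 FPKM in betaine-treated knockouts and 13.0, 13.3 and 14.4 FPKM in knockouts, against 15.2, 19.002 and 14.2 FPKM in wild type. All betaine-treated libraries were below all others, and the knockouts overlapped wild type. The differences were −0.23 ± 0.15 for knockout against wild type (−0.32 without wild-type replicate 3), −0.33 ± 0.15 for betaine-treated knockout against knockout and −0.56 ± 0.15 for betaine-treated knockout against wild type (−0.65 without it).

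Nono (ENSMUSG00000031311, chrX:101429318-101448591, plus strand), the usual partner of Sfpq, was at 18.5, 19.2 and 22.2 FPKM in betaine-treated knockouts and 17.7, 15.4 and 15.7 FPKM in knockouts, against 20.9, 21.4 and 21.8 FPKM in wild type. The knockouts were below every library of the other groups, and betaine-treated knockouts overlapped wild type. The differences were −0.39 ± 0.12 for knockout against wild type (−0.37 without wild-type replicate 3), 0.29 ± 0.12 for betaine-treated knockout against knockout and −0.10 ± 0.12 for betaine-treated knockout against wild type.

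Pspc1 (ENSMUSG00000021938, chr14:56720710-56778316, minus strand), the least abundant of the family here, was at 1.46, 2.30 and 2.03 FPKM in betaine-treated knockouts and 0.671, 0.860 and 0.831 FPKM in knockouts, against 0.797, 0.912 and 0.868 FPKM in wild type. Every betaine-treated library lay above every other library, and knockout and wild type overlapped. These levels rested on 141 to 244 reads per betaine-treated library, 52 to 71 per knockout library and 72 to 90 per wild-type library. The differences were −0.08 ± 0.16 for knockout against wild type, 0.90 ± 0.16 for betaine-treated knockout against knockout and 0.82 ± 0.16 for betaine-treated knockout against wild type (0.83 without wild-type replicate 3). With a pseudocount of 0.1 in place of 0.5 the last pair became 1.18 and 1.06, and with a pseudocount of 1 they became 0.70 and 0.65.

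Of all genes tested, 25.6% passed an adjusted p of 0.05 in knockout against wild type, with 12.8% higher and 12.7% lower (limma, Benjamini-Hochberg). By the same rule, 3 of the 5 genes did, Neat1 and Malat1 higher and Nono lower, and since the genes were chosen with this comparison in view, nothing is read from that count. In betaine-treated knockout against knockout, 0 of the 5 genes passed, beside 0.0422% of all genes (0.0169% higher and 0.0253% lower). With every library rescaled to the same sum (TPM), where 1754 genes passed, Neat1, Nono and Pspc1 passed higher in this comparison. Against wild type, 3 of the 5 passed in betaine-treated knockouts, Neat1 and Pspc1 higher and Sfpq lower, beside 11.7% of all genes (5.87% higher and 5.78% lower). The first and second comparisons share the knockout libraries, and the comparisons with wild type share the wild-type libraries. In knockout against wild type, groups that did not overlap were seen for 2 of the 5 genes higher and 1 lower, beside 23.6% and 23.2% of all genes (46.8% in all). In the betaine comparison these were 3 higher and 1 lower, beside 15.6% and 14.7% of all genes (30.3% in all). For betaine-treated knockout against wild type they were 3 higher and 1 lower, beside 16.1% and 16.2% (32.2% in all). Nothing is read from these counts either.

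The summed levels of markers of other liver cells stood beside these values as follows. Summed Kupffer cell markers (0 of 6 past the threshold in any comparison) ran from 53.8 to 149 FPKM in betaine-treated knockouts and from 71.9 to 87.2 FPKM in knockouts, against 113 to 142 FPKM in wild type. Summed sinusoidal endothelial markers (of 6, Kdr alone passed lower in knockouts and Clec4g alone in betaine-treated knockouts, both against wild type and neither without wild-type replicate 3) ran from 19.7 to 31.2 FPKM in betaine-treated knockouts and from 23.5 to 31.1 FPKM in knockouts, against 31.5 to 57.0 FPKM in wild type. Summed cholangiocyte markers (0 of 3 tested past the threshold in any comparison) ran from 2.18 to 4.09 FPKM in betaine-treated knockouts and from 2.58 to 4.39 FPKM in knockouts, against 4.24 to 5.65 FPKM in wild type. Without wild-type replicate 3, 1 of those 3 passed lower in knockout against wild type. The groups overlapped in summed stellate cell markers (22.3 to 36.5 FPKM in betaine-treated knockouts and 24.1 to 29.9 FPKM in knockouts, against 15.9 to 46.0 FPKM in wild type) and in summed erythroid markers (53.3 to 124 FPKM in betaine-treated knockouts and 61.4 to 115 FPKM in knockouts, against 28.4 to 317 FPKM in wild type). Of 6 stellate cell markers, 0 passed in any comparison with all libraries. Without wild-type replicate 3, 2 of the 6 passed higher against wild type in knockouts, Col3a1 (0.93, adjusted p = 0.0458) and Des (0.86, adjusted p = 0.0196). The same 2 passed higher in betaine-treated knockouts, by 1.22 (adjusted p = 0.0287) and 0.80 (adjusted p = 0.0325). Summed lymphocyte markers ran from 0.947 to 4.29 FPKM in betaine-treated knockouts and from 1.08 to 1.53 FPKM in knockouts, against 1.76 to 2.94 FPKM in wild type. The part of these cells in the differences of the 5 genes was not tested.

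Ratios of levels within a library do not depend on how the libraries were scaled to each other. Malat1 over Neat1 was 3.89, 3.28 and 2.66 in betaine-treated knockouts and 7.82, 9.90 and 12.3 in knockouts, against 12.2, 9.53 and 10.03 in wild type. The betaine-treated knockouts were thus below every other library, and knockouts overlapped wild type. Neat1 over Nono was 0.603, 0.404 and 0.473 in betaine-treated knockouts and 0.268, 0.488 and 0.459 in knockouts, against 0.0831, 0.0889 and 0.0764 in wild type. Here both knockout groups were above wild type and overlapped each other.

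Within the protein family, Sfpq over Nono was 0.560, 0.490 and 0.563 in betaine-treated knockouts and 0.738, 0.861 and 0.917 in knockouts, against 0.728, 0.889 and 0.648 in wild type. Pspc1 over Nono was 0.0789, 0.119 and 0.0915 in betaine-treated knockouts and 0.0380, 0.0558 and 0.0530 in knockouts, against 0.0381, 0.0427 and 0.0397 in wild type. In both ratios the betaine-treated knockouts stood clear of the other groups, lower for Sfpq and higher for Pspc1, and knockouts overlapped wild type.

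**Figure D2:**
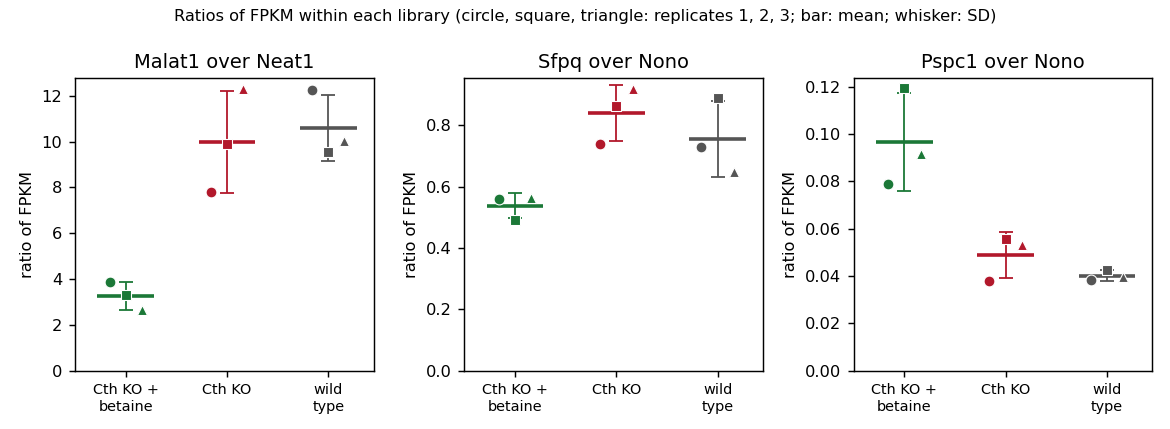
Ratios of FPKM within each library (y axis, from 0) for the 3 groups (x axis); symbols are replicates, bars the means and whiskers the SD. Malat1 over Neat1 averages 3.28 in betaine-treated knockouts, 9.996 in knockouts and 10.6 in wild type.

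Scaling between libraries did matter for the small differences. The deposited FPKM sums differed between libraries, from 373773 to 584197, and the 3 knockout libraries had the highest sums. Rescaling every library to the same sum (TPM) moved the median of all genes to −0.36 in knockout against wild type and to 0.33 in betaine-treated knockout against knockout. On that scale 13.8% of the 4262 calls in knockout against wild type were higher, against 50.1% of 3029 on the deposited scale. In betaine-treated knockout against knockout 95.8% of 1754 calls were higher, against 40.0% of only 5. Neat1 then differed by 1.33 from wild type in knockouts and by 0.94 between betaine-treated knockouts and knockouts, and Malat1 by 1.32 and −0.63. The betaine difference of Sfpq, −0.33 as deposited, became 0.022 on that scale, and that of Nono, 0.29 as deposited, became 0.65.

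Neat1 and Malat1 are long transcripts, and long transcripts as a class were lower in the knockouts. Among the 2300 tested genes with an exon length of at least that of Malat1 (6983 bases), 57 passed higher and 642 lower in knockout against wild type, with a median of −0.30 against 0.02 for all genes. Over all genes 12.8% passed higher and 12.7% lower. For betaine-treated knockout against wild type the counts of the 2300 were 37 and 306 and the median −0.20, beside 5.87% and 5.78% of all genes. Among the 50 genes at least as long as Neat1, 1 was higher and 12 were lower in knockout against wild type, and that 1 was Neat1 itself. Since Neat1 was chosen with this comparison in view, nothing is read from its being that 1. With the trend of fold change on exon length removed, the difference of Neat1 was 1.97 for knockout against wild type and 2.50 for betaine-treated knockout against wild type, and that of Malat1 was 1.94 and 0.86. The plot of change against exon length shows both RNAs above the median of genes of their length.

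**Figure D3:**
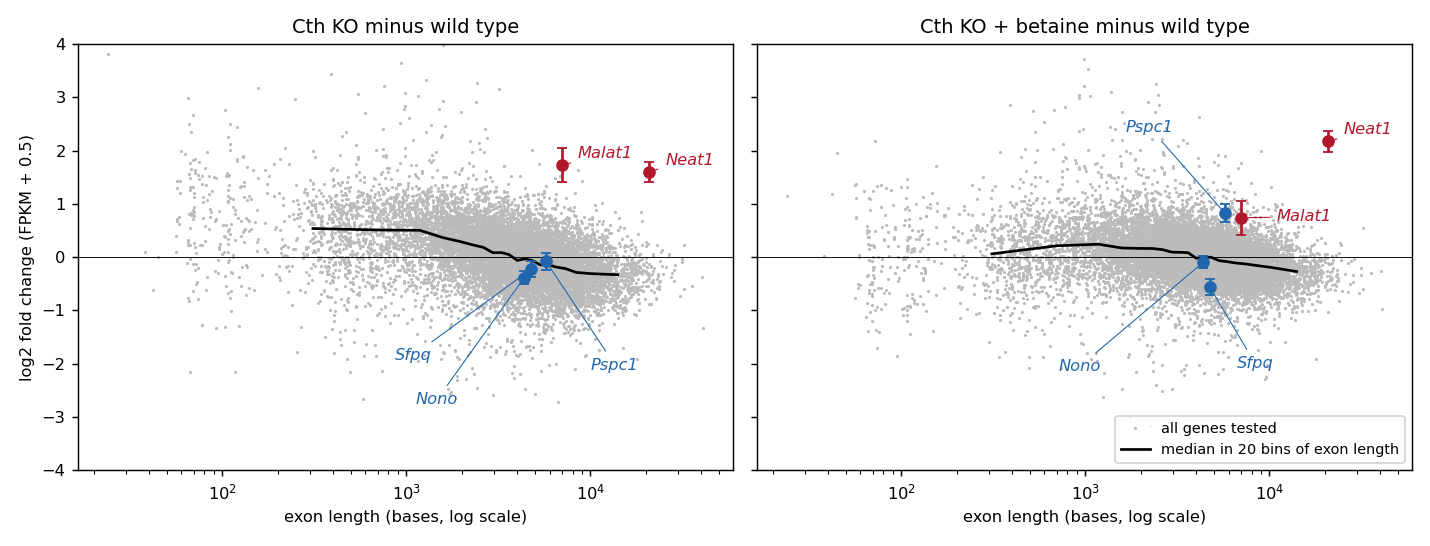
Log2 fold change on the log2(FPKM + 0.5) scale (y axis) against exon length in bases (x axis, log scale) for all genes tested (grey), with the median in 20 bins of length (line) and the 5 genes as points with SE. In knockout minus wild type (left) Neat1 at 1.60 and Malat1 at 1.72 lie above a line that falls with length; 11 genes on the left and 2 on the right lie outside the axis of ±4.

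The other proteins of paraspeckles differed in both directions. All 32 on the list were tested. In knockout against wild type 3 rose and 3 fell, with a median of 0.09 (13 at an unadjusted p under 0.05), beside 12.8% and 12.7% of all genes. Of all 11852 genes tested, 4742 were at an unadjusted p under 0.05 in limma in this comparison. The number was 2672 in betaine-treated knockout against knockout and 3614 in betaine-treated knockout against wild type. Every count at an unadjusted p given here and below stands beside these. In betaine-treated knockout against knockout none of the 32 passed in limma (11 at an unadjusted p under 0.05), with a median of −0.02, beside 0.0422% of all genes. Against wild type, 2 rose in betaine-treated knockouts and 1 fell, with a median of −0.02, beside 5.87% and 5.78% of all genes. Without wild-type replicate 3 the counts were 3 and 2, 1 and 1, and 3 and 1. Over all genes they were then 1184 and 1383, 131 and 142, and 662 and 759. On the TPM scale, where the median of all genes moved as given above, the counts of the 32 were 0 and 10 in knockout against wild type and 6 and 0 in the betaine comparison. Over all genes they were there 588 and 3674, and 1681 and 73.

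Hnrnph3, an hnRNP of the H family on which paraspeckle assembly depends in human cells, was at 4.22, 3.27 and 4.40 FPKM in betaine-treated knockouts and 4.23, 5.30 and 5.11 FPKM in knockouts, against 2.60, 3.15 and 2.60 FPKM in wild type. It rose by 0.71 ± 0.15 in knockout against wild type (adjusted p = 0.0116), and the call was lost without knockout replicate 2. Its relative Hnrnph1 rose by 0.66 ± 0.20 (adjusted p = 0.0418), a call lost without any 1 knockout library, betaine-treated replicate 3, wild-type replicate 1 or wild-type replicate 3 (adjusted p = 0.0528 in that last case). Rbmx, an X-linked hnRNP with near-identical retrogene copies that make its counts uncertain, rose by 0.77 ± 0.21 (adjusted p = 0.0302) and by 0.77 ± 0.21 in betaine-treated knockout against wild type (adjusted p = 0.0483). The Rbmx call in knockouts was lost without knockout replicate 2 or 3 or wild-type replicate 1 or 2, and that in betaine-treated knockouts without any 1 library other than wild-type replicate 3; without wild-type replicate 3 the differences were both 1.00.

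Zfp24, Nudt21 and Hnrnpul1 fell in knockout against wild type. Zfp24, a zinc finger protein, was at 2.69, 2.71 and 2.84 FPKM in betaine-treated knockouts and 2.67, 3.03 and 3.12 FPKM in knockouts, against 4.12, 4.88 and 4.57 FPKM in wild type. It fell by 0.55 ± 0.12 in knockouts (adjusted p = 0.0125) and by 0.63 ± 0.12 in betaine-treated knockouts (adjusted p = 0.0137), in all 9 fits with 1 library left out each. Nudt21, the TGTA-binding subunit named above, was at 3.86, 4.08 and 3.98 FPKM in betaine-treated knockouts and 3.90, 3.17 and 3.24 FPKM in knockouts, against 5.06, 5.35 and 4.74 FPKM in wild type. It fell by 0.50 ± 0.12 in knockouts (adjusted p = 0.0165), a call lost without knockout replicate 2 or 3. Hnrnpul1 fell by 0.40 ± 0.13 (adjusted p = 0.0436), a call lost without knockout or betaine-treated replicate 2 or 3 or wild-type replicate 1 or 3 (adjusted p = 0.0894 without wild-type replicate 3).

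Cpsf7, a partner of Nudt21, was at 5.37, 3.65 and 3.52 FPKM in betaine-treated knockouts and 6.69, 8.08 and 8.91 FPKM in knockouts, against 6.04, 7.40 and 6.06 FPKM in wild type. Betaine-treated knockouts differed by −0.85 ± 0.18 from knockouts (limma, adjusted p = 0.0837) and by −0.60 ± 0.18 from wild type (adjusted p = 0.0580). The difference from knockouts passed without betaine-treated replicate 1 or wild-type replicate 3 (adjusted p = 0.0499 in that last case).

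**Figure D4:**
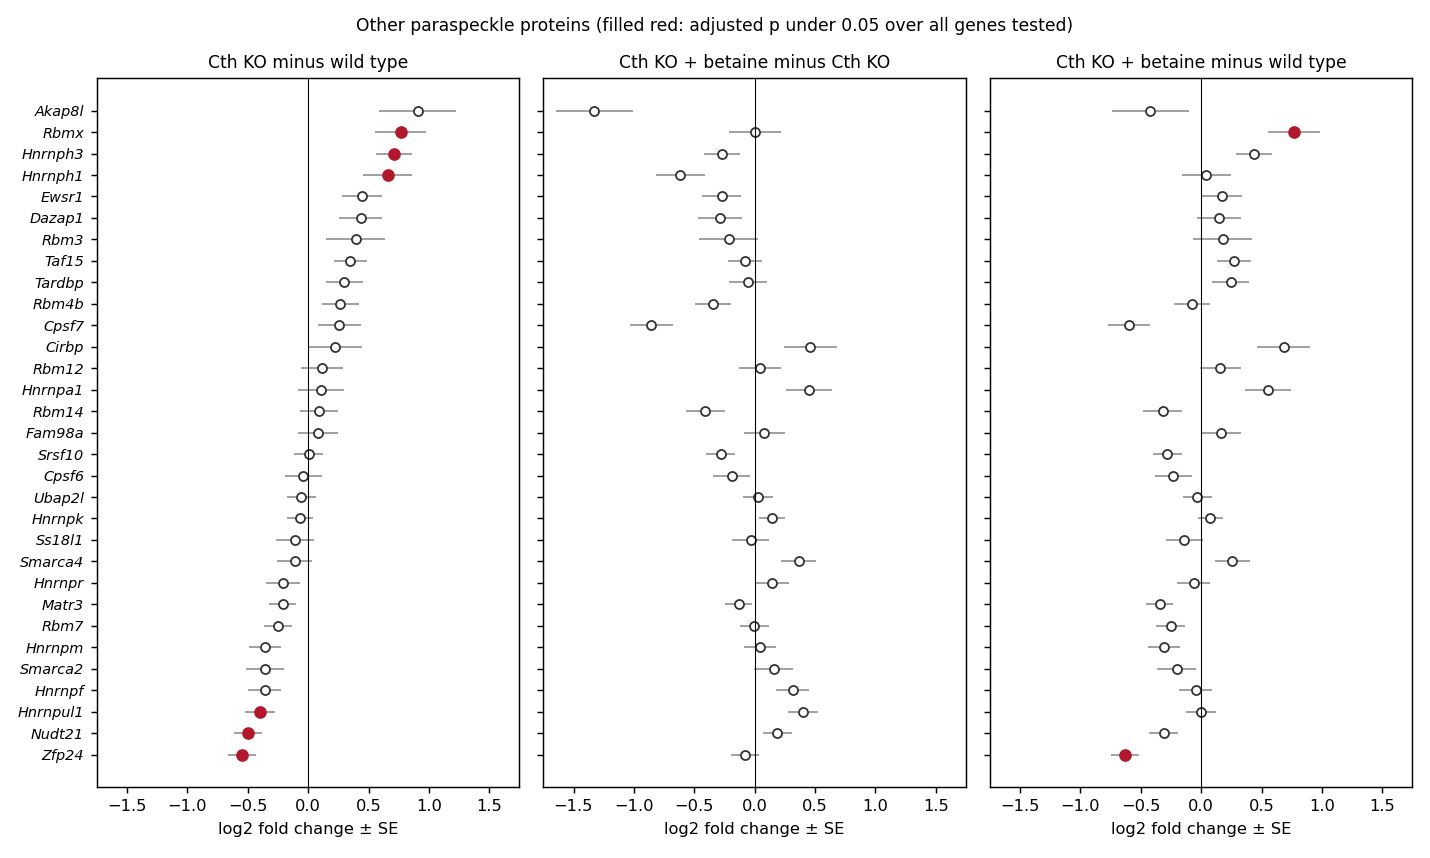
Log2 fold change ± SE (x axis) of 31 of the 32 other paraspeckle proteins (y axis, ordered by knockout minus wild type) in the 3 comparisons, with filled red points past an adjusted p of 0.05 over all genes tested. There are 6 filled points in knockout minus wild type, 0 in betaine-treated knockout minus knockout and 2 in betaine-treated knockout minus wild type.

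Of 21 proteins of the nuclear speckle, the body Malat1 belongs to, 4 rose and 0 fell in knockout against wild type (8 at an unadjusted p under 0.05, median 0.13), beside 12.8% higher and 12.7% lower among all genes. The kinases Clk1 and Clk4, which phosphorylate splicing factors, rose by 0.93 ± 0.25 (adjusted p = 0.0246) and 0.78 ± 0.23 (adjusted p = 0.0336), and the splicing factor Srsf11 rose by 0.70 ± 0.19 (adjusted p = 0.0290). Clk1 was at 6.12, 3.84 and 6.22 FPKM in betaine-treated knockouts and 6.67, 10.2 and 11.7 FPKM in knockouts, against 3.71, 4.73 and 5.64 FPKM in wild type. All 3 calls were lost without knockout replicate 2 or 3 or wild-type replicate 1, that of Clk4 also without wild-type replicate 3 (adjusted p = 0.0533) and that of Srsf11 without wild-type replicate 2. None of the 21 passed in betaine-treated knockout against knockout in limma (9 at an unadjusted p under 0.05, median −0.27), where Luc7l3 differed by −0.77 ± 0.20 (adjusted p = 0.0993). Against wild type, 1 fell and 0 rose in betaine-treated knockouts, beside 5.78% lower and 5.87% higher among all genes. It was the splicing factor Srsf4, which fell by 0.82 ± 0.20 (adjusted p = 0.0336). That call was lost without any 1 betaine-treated library, knockout replicate 2 or wild-type replicate 2 or 3 (−0.69, adjusted p = 0.0662, without wild-type replicate 3). Without wild-type replicate 3, 3 of the 21 rose and 0 fell in knockouts, and 1 rose and 0 fell in betaine-treated knockouts. On the TPM scale 13.8% of the calls over all genes in knockout against wild type were higher. Clk1 and Clk4 then differed by 0.56 and 0.43, and Acin1, at 0.13 the median of this list, by −0.27. The counts of this list and of the sets below are on the deposited scale only.

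Of 36 other long noncoding RNAs listed, 33 were in the table and 18 were tested. In knockout against wild type 3 rose and 0 fell, with a median of 0.40, beside 12.8% higher and 12.7% lower among all genes. The snoRNA host transcript Snhg11 was at 1.12, 0.652 and 0.504 FPKM in betaine-treated knockouts and 1.01, 1.29 and 2.77 FPKM in knockouts, against 0.283, 0.215 and 0.0324 FPKM in wild type. It rose by 1.63 ± 0.31 in knockouts (adjusted p = 0.00925). Its wild-type levels were all under the filter of 0.5 FPKM, which Snhg11 passed only through the knockout groups. They were also near the floor, since 3 reads in 1 kb correspond to 0.166 to 0.196 FPKM in the wild-type libraries. Nothing is therefore read from its call, nor from its part in the counts of this list. Mir17hg, the host of a microRNA cluster, rose by 1.05 ± 0.25 (adjusted p = 0.0173), and the X-linked nuclear RNA Firre by 1.21 ± 0.35 (adjusted p = 0.0356), though its groups overlapped. Both calls were lost without knockout replicate 2 or 3 or wild-type replicate 1, and that of Firre also without wild-type replicate 2. In betaine-treated knockout against knockout none of the 18 passed in limma (10 at an unadjusted p under 0.05) and the median was −0.55. Snhg8 there differed by −1.11 ± 0.26 (adjusted p = 0.0886) and Dleu2 by −0.71 ± 0.20 (adjusted p = 0.107). Against wild type, 0 of 18 passed in limma in betaine-treated knockouts (4 at an unadjusted p under 0.05), with a median of 0.00225, beside 11.7% of all genes. Without wild-type replicate 3, 4 of the 18 rose and 0 fell in knockouts against wild type. In betaine-treated knockouts 0 then rose and 2 fell.

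Of 12 tested genes of RNase P, RNase Z and triple helix binding, the machinery of the ends of Neat1 and Malat1, 3 passed in knockout against wild type, beside 25.6% of all genes. The RNase P subunits Pop4 and Pop5 rose there by 0.57 ± 0.15 (adjusted p = 0.0231) and 0.69 ± 0.21 (adjusted p = 0.0411), and Pop1 fell by 0.56 ± 0.18 (adjusted p = 0.0446). These calls were kept in 6 (Pop4), 3 (Pop5) and 2 (Pop1) of the 9 fits with 1 library left out; all 3 were lost without knockout replicate 2 or wild-type replicate 1, and without wild-type replicate 3 Pop5 was at 0.47 (adjusted p = 0.085). Pop4 also rose in betaine-treated knockout against wild type by 0.56 ± 0.15 (adjusted p = 0.0408, kept in 3 of 9). None passed in betaine-treated knockout against knockout in limma (5 at an unadjusted p under 0.05). Elac2, the RNase Z that trims the tRNA-like RNA of Malat1, was there at 8.28, 8.25 and 8.30 FPKM, against 5.87, 5.00 and 5.04 FPKM in knockouts (difference 0.60 ± 0.11, adjusted p = 0.0774).

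Of 6 transcription factors reported to drive Neat1, 3 fell in knockout against wild type and 0 rose, beside 12.7% lower and 12.8% higher among all genes; without wild-type replicate 3, 1 fell. Atf2 fell by 0.49 ± 0.14 (adjusted p = 0.0301), Hif1a by 0.49 ± 0.15 (adjusted p = 0.0426) and Epas1 by 0.80 ± 0.26 (adjusted p = 0.0496), each in 3 of the 9 fits with 1 library left out and none without knockout replicate 2 or 3. Without wild-type replicate 3 the adjusted p was 0.054 for Atf2 and 0.0976 for Hif1a. Epas1 was at 24.2 and 27.3 FPKM in wild-type replicates 1 and 2 but at 55.2 FPKM in replicate 3, and without it the Epas1 difference was −0.43 (adjusted p = 0.0301). These are transcript levels, which do not measure the activity of the factors. None passed in either comparison with betaine in limma (1 and 3 at an unadjusted p under 0.05).

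Slc7a2, the gene that gives rise to the nuclear-retained CTN-RNA of mouse paraspeckles, was at 32.7, 30.5 and 33.4 FPKM in betaine-treated knockouts and 31.6, 29.1 and 35.1 FPKM in knockouts, against 75.5, 36.1 and 115 FPKM in wild type. It fell by 1.08 ± 0.34 in knockout against wild type (adjusted p = 0.0456), a call lost without any 1 library other than wild-type replicate 2; without wild-type replicate 3 the difference was −0.70 (adjusted p = 0.0823). The gene-level value does not tell CTN-RNA from the mRNA. The editing enzymes Adar and Adarb1 did not pass in any comparison.

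The start of Malat1 lies at −42.8 kb from that of Neat1. Of 46 other genes of the table within 250 kb of either, 25 were tested, and in knockout against wild type 6 rose and 2 fell, with a median of 0.26, beside 12.8% higher and 12.7% lower among all genes. The largest differences among those that passed were those of Slc25a45, a mitochondrial carrier (1.08, adjusted p = 0.0105), and Zfpl1, a Golgi protein (1.05, adjusted p = 0.00891), both past the threshold in all 9 fits with 1 library left out and both smaller than those of Neat1 and Malat1. The other 6 calls were Rnaseh2c, Sssca1, Fau and Tm7sf2, which rose by 0.46 to 0.70, and Dpf2 and Pcnx3, which fell by 0.38 and 0.35; without wild-type replicate 3 each of these 6 missed the threshold. Frmd8, the nearest tested gene on the Neat1 side, did not pass (0.37, adjusted p = 0.144). None of the 25 passed in betaine-treated knockout against knockout in limma (6 at an unadjusted p under 0.05). In betaine-treated knockout against wild type 1 rose (Slc25a45, 0.87, adjusted p = 0.0361) and 2 fell (Dpf2 by 0.47 and Pcnx3 by 0.39), beside 5.87% and 5.78% of all genes. Those 3 calls were kept in 3 (Slc25a45), 1 (Dpf2) and 0 (Pcnx3) of the 9 fits with 1 library left out. Whether counting used the strand is not stated, so a gene and one on the opposite strand over it cannot be told apart.

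**Figure D5:**
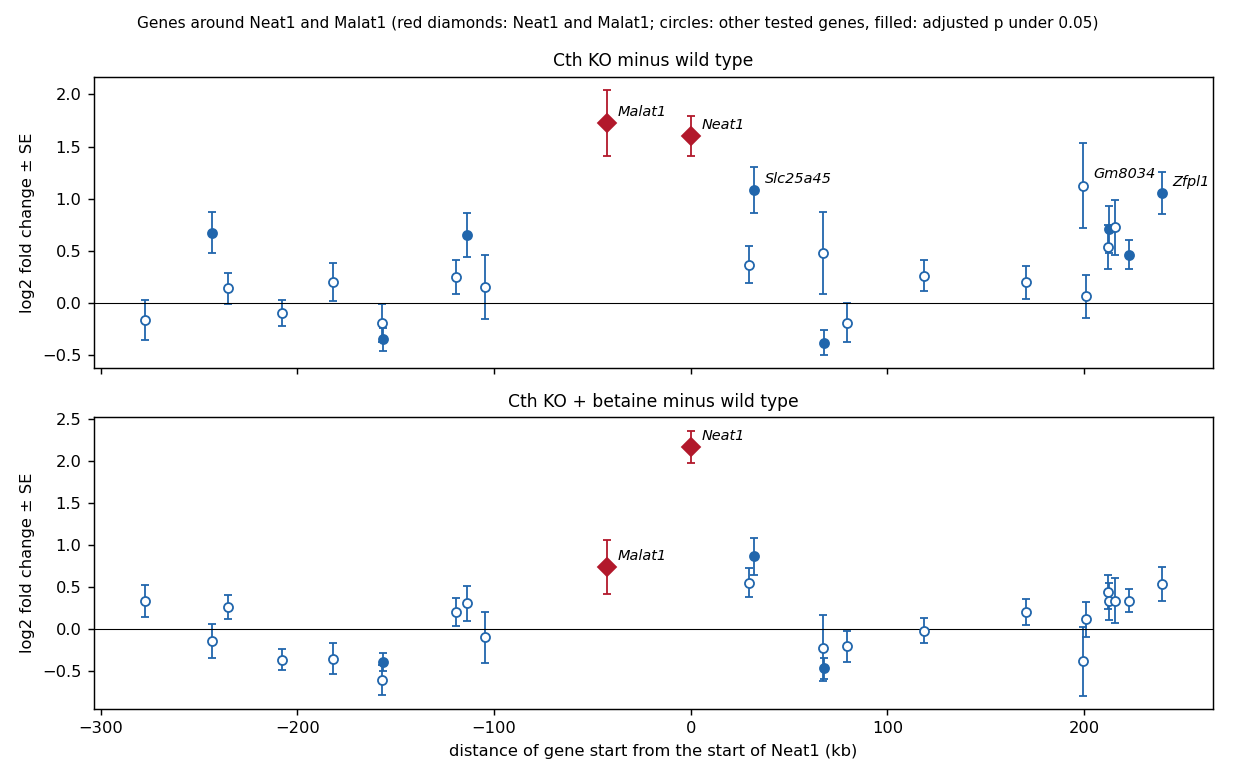
Log2 fold change ± SE (y axis) of Neat1, Malat1 and 24 of the 25 tested genes around them against the distance of their starts from the start of Neat1 in kb (x axis), in knockout minus wild type (top) and betaine-treated knockout minus wild type (bottom); diamonds are Neat1 and Malat1, and filled circles are other genes past an adjusted p of 0.05. Neat1 and Malat1, at 1.60 and 1.72, are above the 24 neighbours shown in the upper panel.

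Likeness of pattern was measured as the root mean square difference between 2 genes of log2(FPKM + 0.5), each centred on its own mean, over the 9 libraries. It was taken among 9117 named genes averaging 1 FPKM or more, with predicted models (such as Gm and Rik names) left out. Nearest to Neat1 were Mtln (0.295), Sp3os (0.295), Bhmt (0.303) and Krt18 (0.320). Bhmt, the enzyme that uses betaine to methylate homocysteine, and Krt18, a keratin of hepatocytes, are named by this rule alone. Malat1 itself stood at 0.740 from Neat1. Nearest to Malat1 were Cyp2d37-ps (0.196), Rsad1 (0.314), Mrnip (0.318) and Hist1h4c (0.325), of which the first and the last have close copies in the genome that make their values uncertain.

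Nearest to Sfpq were Ahsa2 (0.0941), Ints6 (0.0975), Luc7l (0.102) and Hsdl2 (0.103). Nearest to Nono were Cops8 (0.0526), Selenot (0.0573), Kpna3 (0.0619) and Cct5 (0.0621), and nearest to Pspc1 were Tbcel (0.120), Itpk1 (0.134), Cxcl10 (0.148) and Acvr1b (0.159). The 3 proteins were farther from each other than from these, with 0.296 between Sfpq and Nono, 0.413 between Nono and Pspc1 and 0.648 between Sfpq and Pspc1. Genes that vary little have small differences by this measure, so the values do not compare between genes of different spread.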

How the data were processed

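Liver RNA of 9 mouse libraries was selected with poly-T beads and prepared with the NEBNext Ultra kit, per the labels' protocols. The deposited values are FPKM per gene, made by the authors; per the submitters' processing notes HISAT2 2.0.5, featureCounts 1.5.0-p3, DESeq2 1.16.1 and the build mm10 were used, with no role given, and strandedness is not given in the sources used here. Exon lengths, positions and sequences came from GENCODE M21 (54495 of 54532 genes had a length).

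From FPKM times length, whole reads within 0.05 were recovered for 98.5% to 98.7% of values of up to 20 reads, giving the depths in the text; 3 reads in 1 kb correspond to 0.162 to 0.222 FPKM. All tests used limma 3.58.1 (R 4.3.3; trend and robust) on log2(FPKM + 0.5) of the 11852 genes averaging 0.5 FPKM or more, in 1 fit of 3 groups of 3 libraries, two-sided, with Benjamini-Hochberg adjustment over all genes and a threshold of 0.05. The procedure was tested on simulated data. Summaries and figures were made in Python 3.11.15 (pandas 2.3.3).

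The 5 genes and all lists were chosen with earlier results of these data known. From each list the text names the genes past the threshold with the smallest p, up to 6 for paraspeckle proteins and 3 for other lists, or up to 2 where none passed, of which some are given only by count. It also names 4 genes of most alike pattern and the nearest or called genes within 250 kb. Alternatives were other pseudocounts and filters, TPM, quantile normalization, removal of the exon length trend, fits of 2 groups, limma without trend and robust, a replicate block, single libraries left out and, chosen after seeing the data, rescaling to each library's own total of reads. Some genes of these sets are counted but not reported here by name.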

Additional observations from a re-analysis of the deposited data

How the results depend on the processing

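With 3 libraries a group, the counts of calls moved as single libraries were left out. Knockout against wild type gave 3029 calls over all genes, and 896 to 3231 with 1 library left out: leaving out knockout replicate 2 gave 896, replicate 3 gave 1706 and replicate 1 gave 1957, and leaving out wild-type replicate 1 gave 1826. Betaine-treated knockout against knockout gave 5, and 0 to 878 with 1 left out (878 without betaine-treated replicate 1, 273 without wild-type replicate 3, 0 without knockout replicate 2 or 3, and 1 without betaine-treated replicate 2 or wild-type replicate 1); betaine-treated knockout against wild type gave 1381, and 351 to 1441 (351 without betaine-treated replicate 3, 628 without betaine-treated replicate 1, 578 and 638 without wild-type replicates 1 and 2, 859 and 910 without knockout replicates 2 and 3). With no filter on low values these counts were 1865, 1 and 531. The betaine comparison gave 8 and 10 calls with pseudocounts of 0.1 and 1, 1754 on the TPM scale, 35 with only the 2 groups fitted, 0 without trend and robust and 67 after rescaling to each library's own read total, chosen after seeing the data (80.6% higher; median of all genes 0.16). Betaine-treated knockout against wild type gave 353 with only the 2 groups fitted.

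The replicate block gave 2210 calls in knockout against wild type, 0 in betaine-treated knockout against knockout and 671 in betaine-treated knockout against wild type, and 4, 0 and 2 of the other paraspeckle proteins. The labels say nothing of what a replicate number shares. Deviations of same-numbered libraries correlated at 0.049 to 0.098 between knockout and wild type, where 6 of 6 libraries correlated best with their own number, at −0.227 to −0.028 between betaine-treated knockout and knockout (0 of 6), and at −0.124 to −0.095 between betaine-treated knockout and wild type (0 of 6).

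Calls among the other paraspeckle proteins in knockout against wild type, 6 as reported, were 3 with no filter, 10 on the TPM scale and 1 to 8 with 1 library left out (1 without knockout replicate 2); in the betaine comparison, 0 as reported, they were 6 on the TPM scale and 0 to 2; and in betaine-treated knockout against wild type, 3 as reported, 1 with only the 2 groups fitted and 2 to 4. Of the 5 genes, Neat1 and Malat1 kept the direction of every difference under every alternative run, as did Nono; the differences of Sfpq in the betaine comparison (0.022 on the TPM scale) and of Pspc1 in knockout against wild type (0.07 with the length trend removed), which passed no test, changed sign. Which of the 5 genes passed also changed with the setting, and nothing is read from this. In knockout against wild type Nono missed the threshold with no filter, with the length trend removed, under the replicate block and without any 1 knockout or wild-type library, and Sfpq passed lower on the TPM scale. In the betaine comparison Neat1, Nono and Pspc1 passed on the TPM scale, and Pspc1 without betaine-treated replicate 1 or wild-type replicate 3. Against wild type in betaine-treated knockouts, Pspc1 missed it with only the 2 groups fitted and without betaine-treated replicate 3 or wild-type replicate 1. There Sfpq missed it with no filter, with only the 2 groups fitted, without trend and robust, under the replicate block and without any 1 library other than wild-type replicate 3. On the TPM scale, knockout against wild type gave 1.33 for Neat1, −0.65 for Sfpq, −0.81 for Nono and −0.42 for Pspc1, and the betaine comparison gave 0.94 for Neat1, 0.65 for Nono and 1.36 for Pspc1. With the exon length trend removed Neat1 differed from wild type by 1.97 in knockouts and 2.50 in betaine-treated knockouts. Rescaling to own read totals gave −0.51 for Nono in knockout against wild type and, in the betaine comparison, −0.15 for Sfpq and 0.47 for Nono. With pseudocounts of 0.1 and 1 Pspc1 differed by 1.18 and 0.70 in the betaine comparison and by 1.06 and 0.65 in betaine-treated knockout against wild type. The causes were not tested.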
